A study of Mus musculus with 12 samples.

Results

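The lymphoid priming genes examined here are Dntt, Rag1, Rag2, Flt3, Il7r, Notch1, Satb1, Ikzf1, Tcf3 and Tespa1, a list of 10 genes that early progenitors switch on or need on the way to B and T cells. They were taken by gene symbol from the array's probe annotation, keeping the probe set with the highest mean where a gene had several. Of the 10, 9 had a named probe set, 1 each, among 19494 named genes, and Rag1 had none, so Rag1 was not analysed here. All samples came from mice that carry Vav-Cre, which recombines loxP sites throughout the blood system, including blood stem cells. KO mice were Nfat5 fl/fl Vav-Cre and WT mice were Nfat5 +/+ Vav-Cre, so that both genotypes share the Cre and KO mice also carry loxP-flanked Nfat5, which encodes a transcription factor of the cell's answer to hypertonicity. From the bone marrow of each mouse, untreated and at steady state, LSK cells (lineage-negative cells with Sca-1 and Kit, the compartment of blood stem and progenitor cells) were sorted into multipotent progenitors (MPP, CD48+CD150-) and haematopoietic stem cells (HSC, CD48-CD150+). The 12 arrays form 4 groups of 3, KO MPP, WT MPP, KO HSC and WT HSC, and each mouse gave 1 MPP and 1 HSC array. Values of KO mice are listed below for mice 2, 11 and 70, and values of WT mice for mice 3, 12 and 64.

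Lymphoid priming is the low, early expression of lymphoid genes in progenitors that can still make other blood cells. FLT3 on multipotent progenitors and then the interleukin 7 receptor carry the signals of the earliest lymphoid steps, Ikaros and E2A are transcription factors needed for them, and NOTCH1 directs cells to the T lineage in the thymus. The recombinase RAG1/RAG2 and the terminal transferase TdT later assemble and diversify the antigen receptor genes, and transcripts of these enzymes appear in part of the progenitors before any receptor gene is joined.

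The promoters of 9 of the 10 genes were available from RefSeq (build GRCm38.p6), as windows of 300 bases with 250 before and 50 after each transcription start. Those of Dntt, Flt3 and Il7r are shown because, of the genes with 1 annotated start in these tables, they differed most between MPP and HSC, and that of Notch1 because its values overlapped between both. They lie at chr19:41029025-41029324 on the plus strand for Dntt and, on the minus strand, at chr5:147400440-147400739 for Flt3, chr15:9529827-9530126 for Il7r and chr2:26503773-26504072 for Notch1. Capitals mark each E-box, CANNTG with any base at N. E proteins such as E2A bind forms of this core, and the capitals do not tell these forms from others.
Dntt: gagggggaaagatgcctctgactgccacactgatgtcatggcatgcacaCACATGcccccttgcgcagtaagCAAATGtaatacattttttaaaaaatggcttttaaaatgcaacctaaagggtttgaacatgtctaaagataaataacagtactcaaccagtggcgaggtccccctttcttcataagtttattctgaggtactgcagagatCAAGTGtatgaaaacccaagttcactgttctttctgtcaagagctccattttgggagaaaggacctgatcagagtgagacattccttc
Flt3: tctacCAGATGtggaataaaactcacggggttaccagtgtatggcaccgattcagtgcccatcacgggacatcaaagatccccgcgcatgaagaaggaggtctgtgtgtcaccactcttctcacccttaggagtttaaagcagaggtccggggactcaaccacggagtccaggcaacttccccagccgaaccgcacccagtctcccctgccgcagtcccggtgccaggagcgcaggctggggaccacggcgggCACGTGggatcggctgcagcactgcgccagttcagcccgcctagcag
Il7r: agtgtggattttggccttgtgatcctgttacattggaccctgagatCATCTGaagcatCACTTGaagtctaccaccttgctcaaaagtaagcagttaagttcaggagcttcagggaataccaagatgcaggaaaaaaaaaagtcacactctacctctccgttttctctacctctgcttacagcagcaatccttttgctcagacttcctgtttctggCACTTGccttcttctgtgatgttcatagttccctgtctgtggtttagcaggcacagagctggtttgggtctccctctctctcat
Notch1: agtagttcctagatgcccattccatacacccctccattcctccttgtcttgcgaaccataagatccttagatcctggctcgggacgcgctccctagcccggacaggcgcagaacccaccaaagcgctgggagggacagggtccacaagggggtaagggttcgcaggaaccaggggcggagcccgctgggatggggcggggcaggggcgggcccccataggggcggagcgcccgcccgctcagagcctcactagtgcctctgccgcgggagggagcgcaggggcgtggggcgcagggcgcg
The windows held 3 E-boxes for Dntt, 2 for Flt3, 3 for Il7r and 0 for Notch1, and 72.3% of all 32851 windows hold at least 1. The form CAGCTG, present in 16.3% of all windows, and the form CAGGTG, present in 20.2%, were in none of these 4. The Ikaros core GGGAA, searched on both strands and present in 62.7% of windows, occurred once each for Dntt and Flt3, at 2 places for Il7r and not for Notch1. Of the 9 genes with a window, Rag1 was the 1 that held TGGAAA, a core bound by NFAT proteins that 21.4% of windows hold. In base composition the genes were spread widely. GC content was 42.3% for Dntt, 43.0% for Rag2 and 45.7% for Il7r, and 61.0% for Flt3, 61.7% for Tcf3 and 68.3% for Notch1, where the median of all windows is 52.7%, and Rag1 lay between Il7r and that median. Satb1 had 5 annotated starts with 49.0% to 76.7%, and Ikzf1 had 2, with 81.3% and 49.0%. A match of letters is a description of the window and shows no binding.

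The arrays were comparable as a whole, and the sort genes Cd48 and Slamf1 followed the population labels. For the genotype labels Nfat5 was the gene to look at, and it read lower in KO without passing the limma test. Array medians were 5.81 to 5.91 on the log2 scale, and 1 array stood apart, the HSC of KO mouse 2, whose deviations from the group mean had an SD of 0.438 where the other arrays had 0.276 to 0.378. Nfat5 read 7.16 ± 0.25 in KO MPP and 8.03 ± 0.24 in WT MPP, and 7.69 ± 0.31 in KO HSC and 8.60 ± 0.36 in WT HSC (SD, n = 3 each), with no overlap. The exact permutation test (two-sided) gave p = 0.1 in MPP and in HSC, the smallest that 3 mice against 3 allow. KO and WT did not overlap for 9.49% of all genes in MPP and for 8.87% in HSC. By limma Nfat5 did not pass in MPP (adjusted p = 0.99991) or in HSC (adjusted p = 0.566). Where the probe set lies relative to the deleted part was not known, so the remaining signal is no measure of remaining NFAT5. Cd48, a gene of the sort, read 8.70 ± 0.31 in KO MPP, 8.55 ± 0.52 in WT MPP, 5.52 ± 0.20 in KO HSC and 5.74 ± 0.35 in WT HSC. Slamf1, which encodes CD150, read 5.55 ± 0.19 in KO MPP, 5.80 ± 0.22 in WT MPP, 8.02 ± 0.81 in KO HSC and 8.04 ± 0.35 in WT HSC. Kit lay between 9.69 and 10.89 on all 12 arrays, and Ly6a, which encodes Sca-1, had no named probe set. Markers of B cells, of which 8 were measured, averaged 6.49 to 7.10 per array in KO MPP, 6.72 to 7.02 in WT MPP, 5.79 to 5.94 in KO HSC and 5.84 to 6.02 in WT HSC, with Ms4a1 under 4.96 in every group. Among them Ebf1, described below, and Vpreb1, part of the surrogate light chain that pro-B cells make, passed in WT mice. Vpreb1 averaged 8.43 in KO MPP, 8.73 in WT MPP, 6.05 in KO HSC and 6.73 in WT HSC, and was higher in MPP in both genotypes (adjusted p = 0.00439 in KO mice and 0.00862 in WT mice by limma). Without Ebf1 and Vpreb1 the other 6 averaged 5.96 to 6.65 in KO MPP, 6.02 to 6.50 in WT MPP, 5.62 to 5.94 in KO HSC and 5.67 to 5.89 in WT HSC. Markers of T and NK cells, of which 9 were measured, averaged 5.01 to 5.22 in KO MPP, 5.08 to 5.27 in WT MPP, 4.93 to 5.07 in KO HSC and 4.76 to 4.87 in WT HSC, and Cd3d, Cd3g, Klrb1c, Ncr1 and Gzma were under 4.96 in every group. Without Nkg7, a granule protein gene and the 1 of them that passed, the other 8 averaged 4.63 to 4.84 in KO MPP, 4.63 to 4.84 in WT MPP, 4.68 to 4.91 in KO HSC and 4.64 to 4.72 in WT HSC. Dendritic cell markers, 7 with Flt3 and Ccr9 among them, averaged 6.0 to 6.19 in KO MPP, 5.85 to 6.26 in WT MPP, 5.20 to 5.34 in KO HSC and 5.17 to 5.48 in WT HSC. Without Flt3 and Ccr9 the other 5 averaged 5.48 to 5.68 in KO MPP, 5.20 to 5.58 in WT MPP, 5.21 to 5.41 in KO HSC and 5.38 to 5.67 in WT HSC. Monocyte and macrophage markers, of which 5 were measured, averaged 5.62 to 5.82 in KO MPP, 5.75 to 6.03 in WT MPP, 4.90 to 5.36 in KO HSC and 4.70 to 5.35 in WT HSC, with the chemokine receptor gene Ccr2, whose HSC means lay under 4.96, the 1 that passed (WT mice). Neutrophil markers, of which 7 were measured, averaged 5.96 to 7.21 in KO MPP, 4.78 to 7.38 in WT MPP, 5.79 to 8.13 in KO HSC and 6.11 to 8.26 in WT HSC, so that all 4 groups overlapped. Erythroid markers, of which 3 were measured, averaged 5.99 to 7.31 in KO MPP, 5.85 to 6.58 in WT MPP, 5.74 to 6.79 in KO HSC and 6.33 to 7.50 in WT HSC, which overlapped too. Without Ccr2 the other 4 monocyte and macrophage markers averaged 5.36 to 5.62 in KO MPP and 5.64 to 5.85 in WT MPP. In HSC they averaged 5.19 to 5.23 in KO and 4.96 to 5.60 in WT. The B cell average was higher on every MPP array than on every HSC array, with and without Ebf1 and Vpreb1. The monocyte and macrophage average was so only with Ccr2, and the dendritic average only with Flt3 and Ccr9. The part of these markers in the differences below was not tested. In sorted bulk populations, fewer cells of a type and less RNA per cell cannot be told apart.

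**Figure D1:**
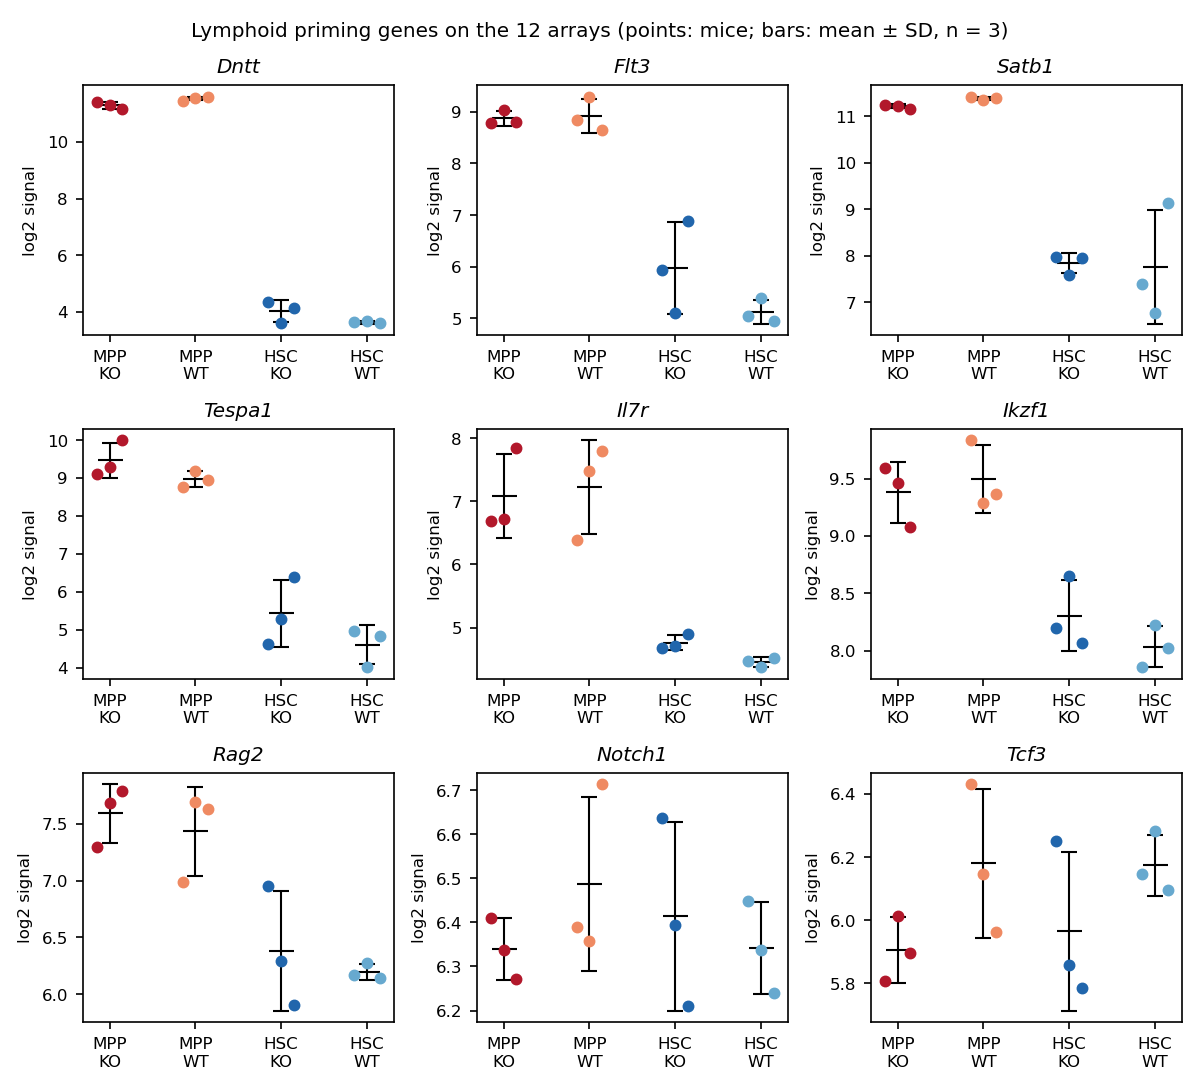
Log2 signal of the 9 measured lymphoid priming genes, 1 panel per gene with its own scale, in KO MPP, WT MPP, KO HSC and WT HSC. Points are mice and bars the mean ± SD (n = 3). Dntt lay above 11 in every MPP and at 4.36 or below in every HSC, 7 genes did not overlap between MPP and HSC, and the groups overlapped for Notch1 and Tcf3.

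How MPP differ from HSC in these genes was compared first in WT mice and then in KO mice. In WT mice 7 of the 9 measured genes were higher in MPP, from 239-fold for Dntt to 2.37-fold for Rag2, while Notch1 and Tcf3 did not pass the test. Across all 14620 genes tested 302, or 2.07%, passed at an adjusted p under 0.05, and 193, or 1.32%, were higher in MPP. The median log2 difference was 2.77 for the 9 genes and -0.032 for all genes. The count describes the list and is no support for it. Genes with a mean under 4.96 over the 12 arrays were not tested, and Dntt and Il7r in both kinds of HSC and Tespa1 in WT HSC lay under that value, so these 3 passed through their MPP arrays and had to differ. Their HSC signal was not shown to be above background, and where it is background the true fold is larger.

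Among the recombination enzymes, Dntt, whose TdT adds untemplated nucleotides at the joints of antigen receptor genes, stood out in size. Its log2 signal was 11.41, 11.30 and 11.16 in KO MPP and 11.46, 11.56 and 11.57 in WT MPP. In HSC it was 4.36, 3.60 and 4.14 in KO and 3.62, 3.69 and 3.58 in WT. Every MPP thus lay far above every HSC, and WT HSC differed from each other by little. Dntt was higher in MPP by 7.90 (95% interval 7.49 to 8.30) in WT mice and by 7.26 (6.85 to 7.66) in KO mice, with adjusted p of 3.3e-09 and 8.1e-09 by limma. In KO mice this is 153-fold.

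Rag2, the partner that RAG1 needs to cut at recombination signals, gave a small difference on the same arrays. It read 7.30, 7.69 and 7.79 in KO MPP and 6.99, 7.69 and 7.63 in WT MPP. In HSC it read 6.95, 6.29 and 5.90 in KO and 6.17, 6.27 and 6.14 in WT. The lowest WT MPP, that of mouse 3, stood only slightly above the KO HSC of mouse 2, and within a genotype MPP and HSC did not overlap. Rag2 was higher in MPP by 1.24 in WT mice (SE 0.27, adjusted p = 0.0454 by limma). In KO mice the difference of 1.21 (SE 0.27) did not pass (adjusted p = 0.0640 by limma). The WT call ended with the mouse as a block (adjusted p = 0.134), with no filter (0.0506), a second quantile normalization (0.0629) or trended and robust moderation (0.0526), and without mouse 3, 11, 12 or 64, with adjusted p up to 0.323. The KO difference passed with array weights (adjusted p = 0.0344), without mouse 2 (adjusted p = 0.0427) and without its HSC array alone (adjusted p = 0.0268).

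Of the receptors, Flt3 encodes the tyrosine kinase whose ligand sustains early lymphoid and dendritic progenitors. Its signal was 8.78, 9.05 and 8.80 in KO MPP and 8.84, 9.29 and 8.64 in WT MPP. In HSC it was 5.94, 5.09 and 6.88 in KO and 5.03, 5.39 and 4.95 in WT. The MPP of both genotypes lay together, and the KO HSC of mice 2 and 70 lay above all WT HSC. Flt3 was higher in MPP by 3.80 in WT mice (SE 0.37, 13.9-fold, adjusted p = 0.000574 by limma) and by 2.90 in KO mice (SE 0.37, 7.48-fold, adjusted p = 0.00374 by limma). Without mouse 2 the KO difference did not pass (adjusted p = 0.0514).

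Il7r encodes the alpha chain that the receptors for interleukin 7 and for TSLP share. It read 6.69, 6.72 and 7.85 in KO MPP and 6.39, 7.48 and 7.80 in WT MPP. In HSC it read 4.68, 4.71 and 4.90 in KO and 4.47, 4.37 and 4.52 in WT. MPP of a genotype were spread over more than 1 log2 unit, while HSC of a genotype lay close together. Il7r was higher in MPP by 2.77 in WT mice (SE 0.37, 6.84-fold, adjusted p = 0.00415 by limma) and by 2.32 in KO mice (SE 0.37, adjusted p = 0.0140 by limma). The WT call ended without mouse 12 (adjusted p = 0.0673) and without mouse 64 (adjusted p = 0.0591). The KO call ended without mouse 2 (adjusted p = 0.0820), mouse 11 (0.0802), mouse 70 (0.0711) or the HSC array of mouse 2 alone (0.0511).

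Notch1, the receptor that starts the T cell programme, gave values in 1 narrow band. It read 6.41, 6.34 and 6.27 in KO MPP, 6.39, 6.36 and 6.71 in WT MPP, 6.64, 6.40 and 6.21 in KO HSC and 6.45, 6.34 and 6.24 in WT HSC. The groups overlapped in both genotypes. MPP minus HSC was 0.14 in WT mice (95% interval -0.20 to 0.49, adjusted p = 0.734 by limma) and -0.074 in KO mice (-0.42 to 0.27, adjusted p = 0.891), so the intervals leave room for a difference as large as 0.49.

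Among the nuclear proteins, Satb1 encodes a chromatin organiser that is needed for T cell development. Its signal was 11.25, 11.23 and 11.16 in KO MPP and 11.41, 11.35 and 11.38 in WT MPP. In HSC it was 7.98, 7.59 and 7.96 in KO and 7.40, 6.77 and 9.13 in WT. The MPP values were tight, and the WT HSC were the most scattered group of this gene, with mouse 64 highest. Satb1 was higher in MPP by 3.62 in WT mice (SE 0.45, 12.3-fold, adjusted p = 0.00258 by limma) and by 3.37 in KO mice (SE 0.45, 10.4-fold, adjusted p = 0.00502 by limma). The WT call ended without mouse 3 (adjusted p = 0.0548), and the KO call without mouse 2 (0.0609), mouse 11 (0.0711) or mouse 70 (0.0540).

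Ikzf1 encodes Ikaros, a zinc finger factor without which lymphoid development fails early. It read 9.59, 9.46 and 9.08 in KO MPP and 9.83, 9.29 and 9.36 in WT MPP. In HSC it read 8.20, 8.65 and 8.06 in KO and 7.86, 8.22 and 8.03 in WT. All MPP lay above all HSC, and HSC had a clear signal, unlike the HSC of Dntt or Il7r. Ikzf1 was higher in MPP by 1.46 in WT mice (SE 0.22, 2.75-fold, adjusted p = 0.00707 by limma) and by 1.07 in KO mice (SE 0.22, 2.10-fold, adjusted p = 0.0423 by limma). The WT call ended without mouse 3 (adjusted p = 0.0895) and without mouse 64 (0.0782). The KO call ended with the mouse as a block (adjusted p = 0.101), with a second quantile normalization (0.0541), trended and robust moderation (0.0566), array weights (0.0587) or only the arrays compared (0.141), without any 1 of the 6 mice (0.0530 to 0.262) and without the HSC array of mouse 2 alone (0.118).

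Tcf3 encodes the E proteins E12 and E47, together called E2A, which bind E-boxes and start the B cell programme. It read 5.81, 6.01 and 5.90 in KO MPP, 6.43, 6.15 and 5.96 in WT MPP, 6.25, 5.86 and 5.78 in KO HSC and 6.15, 6.28 and 6.09 in WT HSC. As for Notch1, the populations overlapped. MPP minus HSC was 0.0069 in WT mice (95% interval -0.37 to 0.38) and -0.059 in KO mice (-0.43 to 0.32), with adjusted p of 0.991 and 0.922 by limma, and with array weights these differences were -0.035 and 0.0013.

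Tespa1, a protein of T cell receptor signalling and thymocyte selection that binds inositol trisphosphate receptors, was the gene with the second largest difference. It read 9.10, 9.30 and 9.99 in KO MPP and 8.76, 9.19 and 8.94 in WT MPP. In HSC it read 4.64, 5.27 and 6.39 in KO and 4.97, 4.01 and 4.84 in WT. MPP lay above HSC by more than 2 log2 units at the nearest, and the KO HSC of mouse 70 was the highest HSC. Tespa1 was higher in MPP by 4.36 in WT mice (SE 0.42, 20.5-fold, adjusted p = 0.000574 by limma) and by 4.03 in KO mice (SE 0.42, 16.3-fold, adjusted p = 0.00115 by limma).

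In KO mice 6 of the 9 genes were thus higher in MPP, against 184 of 14620 genes, or 1.26%, that passed and 108, or 0.739%, that were higher. The median was 2.32 for the 9 genes and -0.051 for all genes. In order of their difference in WT mice the genes ran Dntt, Tespa1, Flt3, Satb1, Il7r, Ikzf1, Rag2, Notch1 and Tcf3. The 95% intervals of Tespa1, Flt3, Satb1 and Il7r overlapped, as did those of Ikzf1 and Rag2, and the interval of Dntt lay above all others. In KO mice Satb1 came before Flt3, Rag2 before Ikzf1 and Tcf3 before Notch1, each within overlapping intervals. MPP and HSC did not overlap for the same 7 genes, all higher in MPP, in WT mice, where this held for 21.3% of all genes (10.3% higher), and in KO mice, where it held for 17.1% (7.33% higher). The calls of Dntt and Tespa1 in both genotypes and of Flt3 in WT mice held in every alternative that was run, which for Dntt and Tespa1 is no support, since they passed the filter through their MPP arrays. With the mouse as a block 6 of 9 genes passed in WT mice and 5 in KO mice, and 180 and 113 genes in all. Without 1 mouse 4 to 7 of the 9 passed in WT mice and 3 to 5 in KO mice. With only the 6 arrays compared, 3 of 9 passed in KO mice, those of Dntt, Satb1 and Tespa1.

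**Figure D2:**
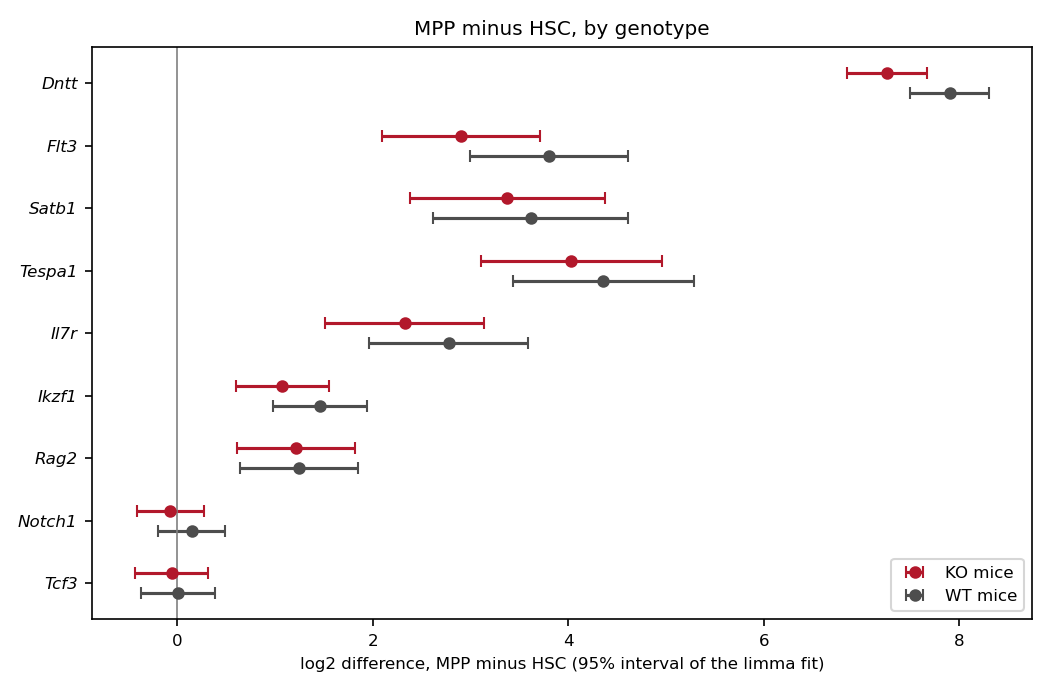
Log2 difference of MPP minus HSC for the 9 genes, in KO mice and in WT mice, with the 95% interval of the limma fit over 12 arrays. The points fall from 7.26 and 7.90 for Dntt to values near 0 for Notch1 and Tcf3, and the intervals of both genotypes overlap for every gene.

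Whether loss of NFAT5 changes these genes was compared within each population, and none of the 9 passed the test in either. Nfat5 itself did not pass this test in MPP or in HSC. In MPP the differences of KO minus WT were small. Tespa1 stood at 0.50 (95% interval -0.43 to 1.43) and Rag2 at 0.16 (-0.44 to 0.76), and the other 7 were below 0. Dntt stood at -0.24 (-0.64 to 0.17), Tcf3 at -0.28 (-0.65 to 0.10), Satb1 at -0.17 (-1.17 to 0.83), Notch1 at -0.15 (-0.49 to 0.20), Il7r at -0.14 (-0.96 to 0.67), Ikzf1 at -0.12 (-0.60 to 0.36) and Flt3 at -0.049 (-0.86 to 0.76). By limma 0 of 14620 genes passed in MPP, with 466, or 3.19%, at an unadjusted p under 0.05, none of them among the 9, and each of the 9 had an adjusted p of 0.99991. The median was -0.14 over the 9 genes and 0.0024 over all genes, of which 7243 were below 0. Dntt and Satb1 read lower in every KO MPP than in every WT MPP, as the values above show. These are 2 of 9 genes without overlap, while KO and WT MPP did not overlap for 9.49% of all genes and 4.66% were lower without overlap. The interval of Dntt reached down to -0.64, and those of Satb1, Il7r and Flt3 were wider.

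In HSC the differences of KO minus WT were mostly positive, with 8 of 9 above 0, against 7810 of 14620 genes. Flt3 had the lowest p of the 9. It averaged 5.97 ± 0.89 in KO HSC and 5.13 ± 0.23 in WT HSC (SD, n = 3 each), a difference of 0.85 (95% interval 0.038 to 1.66, unadjusted p = 0.0417, adjusted p = 0.790 by limma). The KO values were spread over more than the difference itself, with mouse 11 at 5.09 among the WT values and mouse 70 at 6.88. Tespa1 averaged 5.43 ± 0.89 in KO HSC and 4.61 ± 0.52 in WT HSC, a difference of 0.83 (-0.099 to 1.75, adjusted p = 0.828 by limma). Dntt averaged 4.03 ± 0.39 in KO HSC and 3.63 ± 0.054 in WT HSC, a difference of 0.40 (adjusted p = 0.790 by limma), with all values under 4.96. Without mouse 2, or without its HSC array alone, the difference of Dntt was 0.24, and without mouse 11 it was 0.62. Il7r was 0.31 higher (-0.51 to 1.12) and was the 1 gene of the 9 whose KO and WT HSC did not overlap, which held for 8.87% of all genes (5.15% higher). Its HSC values also all lay under 4.96 and were not shown to be above background. Ikzf1 stood at 0.27, Rag2 at 0.19, Satb1 at 0.072, Notch1 at 0.072 and Tcf3 at -0.21. In HSC 0 of 14620 genes passed by limma, with 919, or 6.29%, at an unadjusted p under 0.05, Flt3 being the 1 of the 9 among them. The median was 0.27 for the 9 genes and 0.021 for all genes. In the KO HSC of mouse 70, where Flt3 and Tespa1 were at their highest among HSC, Cd34, whose protein is known as low on the most primitive mouse stem cells, was also highest at 10.12, against 8.69 to 9.59 on the other HSC arrays. Cd48 read 5.75 there, within the 5.34 to 6.02 of the other HSC. Markers of HSC went both ways in this mouse. Among KO mice, its MPP minus HSC was the most negative for Tek (-2.57), Procr (-1.98), Mecom (-1.65) and Hlf (-1.05). It was the least negative for Slamf1 (-1.59) and Fgd5 (-0.13), and Hoxb5 (-0.43) lay between. The 7 HSC markers averaged 7.84 to 8.30 on the KO HSC arrays, this one included, and 7.48 to 7.95 on the WT HSC arrays. Cd34 is a marker of the MPP list and was picked here after its values were seen, and its part in the Flt3 and Tespa1 values was not tested.

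**Figure D3:**
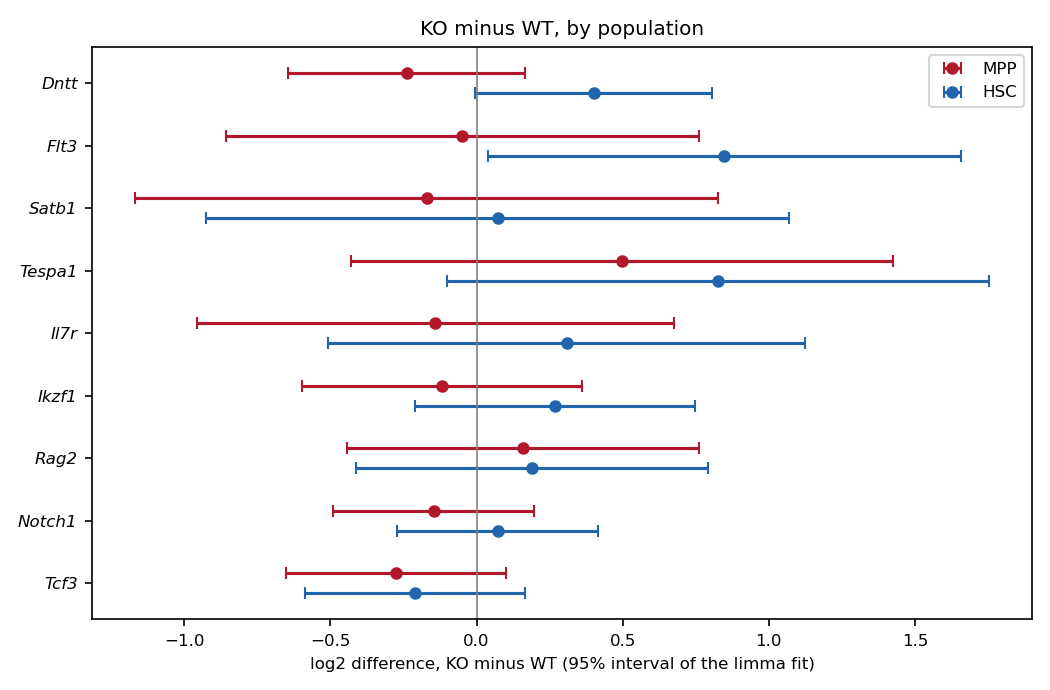
Log2 difference of KO minus WT for the 9 genes, in MPP and in HSC, with the 95% interval of the limma fit. All intervals reach 0 except that of Flt3 in HSC (0.038 to 1.66), whose adjusted p was 0.790. Points of HSC lie to the right of those of MPP for all 9 genes.

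The step between populations can be read within each mouse, and the difference of the genotype differences was tested as an interaction, (KO minus WT in MPP) minus (KO minus WT in HSC). All 9 genes had a negative interaction, as did 7571 of 14620 genes, with a median of -0.33 for the 9 and -0.013 for all genes, and none of the 9 passed. By limma 0 of 14620 genes passed, with 658, or 4.50%, at an unadjusted p under 0.05, Dntt being the 1 of the 9 among them. For Dntt the interaction was -0.64 (95% interval -1.21 to -0.067, unadjusted p = 0.0319, adjusted p = 0.9996). It includes a KO minus WT difference of 0.40 in HSC, where all Dntt values lay under 4.96. Those values were not shown to be above background, so the interaction and the steps of Dntt cannot be told apart from differences in background. Within mice, Dntt was higher in MPP than in HSC by 7.06, 7.70 and 7.02 in KO mice and by 7.84, 7.87 and 7.99 in WT mice. Each KO mouse thus showed a smaller step than each WT mouse, and the same held for 5.33% of all genes (9.62% without overlap in either direction). Leaving out the HSC array of KO mouse 2 gave -0.48 for Dntt, and the interaction lay between -0.86 and -0.52 when 1 mouse was left out. Flt3 rose between HSC and MPP by 2.84, 3.95 and 1.92 within KO mice and by 3.81, 3.90 and 3.69 within WT mice, an interaction of -0.90 (-2.04 to 0.25). KO mouse 11 stepped by as much as the WT mice, and KO mouse 70 by the least. Il7r had an interaction of -0.45, Ikzf1 of -0.39, Tespa1 of -0.33, Satb1 of -0.24, Notch1 of -0.22, Tcf3 of -0.066 and Rag2 of -0.032, and each of these had an interval that spans 0. The comparisons share arrays, so these values are no separate evidence beside the differences given above.

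The 6 MPP arrays also differed from each other within a genotype, and here the genes did not move alike. Il7r was highest in KO mouse 70 (7.85), then WT mouse 64 (7.80), WT mouse 12 (7.48), KO mouse 11 (6.72), KO mouse 2 (6.69) and WT mouse 3 (6.39). Cd48 followed the same order of mice, at 9.06, 9.04, 8.63, 8.57, 8.47 and 8.0. Ikzf1 ran nearly the other way, at 9.83 in WT mouse 3, 9.59 in KO mouse 2, 9.46 in KO mouse 11, 9.36 in WT mouse 64, 9.29 in WT mouse 12 and 9.08 in KO mouse 70. Rag2 was lowest in WT mouse 3 and KO mouse 2, the mice with the least Il7r. KO mouse 11 had more Rag2 than KO mouse 2, though its Il7r was nearly the same. Dntt and Satb1 were nearly level across these mice, with ranges of 11.16 to 11.57 and 11.16 to 11.41. The order was noticed after the values were seen, the 6 mice are of both genotypes, and its cause was not tested.

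**Figure D4:**
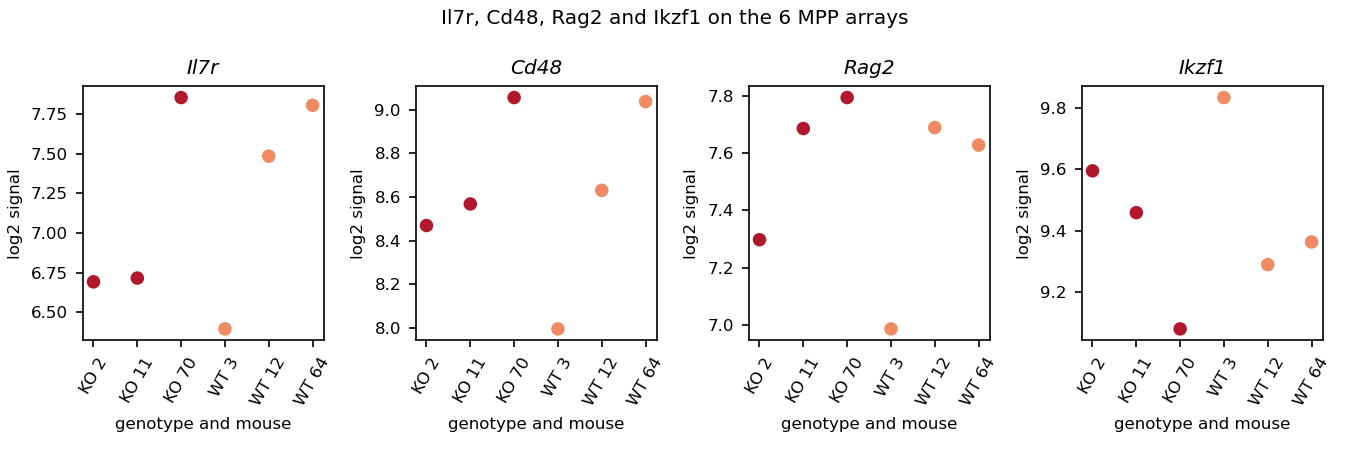
Log2 signal of Il7r, Cd48, Rag2 and Ikzf1 on the 6 MPP arrays, 1 point per mouse, KO mice left and WT mice right, each panel with its own scale. Il7r and Cd48 have the same order of mice, from 7.85 and 9.06 in KO mouse 70 down to 6.39 and 8.0 in WT mouse 3, where Ikzf1 is highest at 9.83.

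Across the 12 arrays the 7 genes that differed between populations rose and fell together, with Pearson r between pairs of 0.79 for Rag2 and Ikzf1 to 0.97 for Dntt and Flt3. Notch1 and Tcf3 had r of -0.26 to 0.31 with those 7 and of 0.20 with each other. All arrays share the split into MPP and HSC, so these values describe that split and carry no test. The genes outside the list whose signal ran closest to Dntt over the 12 arrays were Gm6460 (r 0.984), the C-type lectin gene Clec2i (0.983), Gmfg, a regulator of actin branching (0.982), the tetraspanin gene Cd53 (0.977) and Cd244a, a receptor of the SLAM family (0.977). They were higher in WT MPP than in WT HSC by 2.18, 2.46, 0.58, 3.82 and 2.57 in that order. Closest to Il7r were Cd48 (r 0.974), which the sort itself used, Arpp21 (0.957), the membrane-bending adaptor gene Bin1 (0.956), Cd244a (0.955) and the RNA sensor gene Tlr7 (0.953). Of these Tlr7 had the largest difference in WT mice at 4.43, against an HSC mean of 4.45 that lay under 4.96, while Arpp21 stood at 1.35 and Bin1 at 1.43. With the mouse as a block the calls in WT mice were lost for Gmfg (adjusted p = 0.123), Arpp21 (adjusted p = 0.0807) and Bin1 (adjusted p = 0.0812).

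The partners of these genes were followed through 6 lists of pathway genes in WT and KO mice. For MPP against HSC their counts stand beside the 2.07% of all genes that passed in WT mice (1.32% higher in MPP) and the 1.26% that passed in KO mice (0.739% higher). None passed for KO against WT in either population, where 0% of all genes did. Of the lymphoid specification genes 4 of 16 tested passed in WT mice, all higher in MPP, with a median of 0.42. Ebf1, the factor that commits cells to the B lineage, read 7.08, 8.13 and 8.06 in KO MPP and 7.53, 9.06 and 8.30 in WT MPP, and 5.83, 6.29 and 5.98 in KO HSC and 5.75, 5.94 and 5.94 in WT HSC. It was higher in WT MPP by 2.42 (SE 0.37, adjusted p = 0.00800 by limma) and lost the call without mouse 12 (0.0673) or mouse 64 (0.0978), and in KO mice it was 1.72 higher (adjusted p = 0.0547). Ccr9, the chemokine receptor of thymus homing, averaged 4.47 in KO HSC and 4.49 in WT HSC, under 4.96, so it too was tested through its MPP arrays and had to differ, from a signal not shown to be above background. It was higher in WT MPP by 1.80 (SE 0.26, adjusted p = 0.00577 by limma, 0.0691 without mouse 12). Ccr9 was the 1 gene of the list to pass in KO mice, at 1.39 (adjusted p = 0.0262 by limma, 0.0672 with the mouse as a block, and 0.0908 to 0.179 without KO mouse 2, 11 or 70). That call was also lost with only the arrays compared (0.0502) and without the HSC array of mouse 2 alone (0.0858). Lax1, an adaptor that restrains lymphocyte signalling, was higher in WT MPP by 1.24 (adjusted p = 0.0349 by limma), and Blnk, the adaptor of the B cell receptor, by 1.37 (adjusted p = 0.0454 by limma). Both were lost with the mouse as a block (0.128 and 0.0638) and without any 1 of WT mice 3 and 64 and KO mice 11 and 70, Lax1 also without KO mouse 2 and Blnk also without WT mouse 12, with adjusted p of up to 0.290 and 0.345. With only the arrays compared both calls were lost too (0.117 and 0.0508). Blnk also lost its call with no filter (0.0506) and with a second quantile normalization (0.0517). Lef1, a factor of T cell development, stood at 0.61 and did not pass (adjusted p = 0.294). Ccr9 and Flt3 are also in the dendritic cell list, and Ebf1 is in the B cell list.

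The E protein, Id and Ikaros family list had 8 of 10 genes tested and 2 higher in WT MPP, where 1.32% of all genes were. Tcf4, an E protein known for plasmacytoid dendritic cells, read 11.27 ± 0.075 in WT MPP and 10.16 ± 0.25 in WT HSC, a difference of 1.10 (SE 0.25, adjusted p = 0.0467 by limma), lost without WT mouse 3, 12 or 64 or KO mouse 70 (0.0899 to 0.300). The Tcf4 call was also lost with no filter (0.0523) and with a second quantile normalization (0.0570). Ikzf5, an Ikaros family member, was 1.54 higher (SE 0.34, adjusted p = 0.0498 by limma), a call lost with the mouse as a block (0.105) and without any 1 mouse other than WT mouse 12, with adjusted p of up to 0.309. The Ikzf5 call was also lost with no filter (0.0570), a second quantile normalization (0.0714), trended and robust moderation (0.0557) or only the arrays compared (0.105). The Id genes, whose products hold E proteins off DNA, gave small differences, with Id1 at -0.30, Id4 at -0.28 and Id2 at 0.36, none of which passed. In KO mice 0 of the 8 passed, and the medians were 0.045 in WT mice and 0.11 in KO mice. None of 24 tested Notch pathway genes passed in either genotype, a count near the background of 2.07% in WT and 1.26% in KO mice, with medians of 0.028 in WT and -0.13 in KO mice. The lowest p in WT mice was that of Aph1a, a subunit of gamma-secretase, at 0.98 (adjusted p = 0.186), and Rbpj, the DNA-binding partner of NOTCH, stood at 0.73.

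Among 16 tested genes of FLT3 and IL-7 receptor signalling 0 passed in WT mice (median -0.11), near the background of 2.07% that also holds for the other lists of WT mice below. The lowest p was that of Tslp, which encodes a cytokine that uses the IL-7 receptor alpha chain, at -1.18 (adjusted p = 0.227). In KO mice, where 1.26% of all genes passed, 1 was higher and 1 lower in MPP, both singled out after their values were seen. Bcl2, the survival gene downstream of IL-7, read 9.33, 9.15 and 8.98 in KO MPP and 7.43, 7.59 and 7.71 in KO HSC, 1.57 higher in MPP (adjusted p = 0.00374 by limma, 0.0530 without mouse 2). In WT mice Bcl2 was 0.37 higher in MPP and did not pass (adjusted p = 0.435 by limma). Cish, a feedback inhibitor of STAT5 signalling, was 1.75 lower in KO MPP than in KO HSC on the log2 scale, at -1.75 (adjusted p = 0.00786 by limma, 0.0834 without mouse 11 and 0.0819 without mouse 70). In WT mice Cish averaged 5.56 in MPP and 5.87 in HSC and did not pass. No gene of this list passed for the interaction (lowest adjusted p = 0.884 by limma), so neither call is shown to be particular to KO mice. In HSC Cish read 6.73, 7.27 and 7.20 in KO and 5.80, 5.97 and 5.84 in WT, without overlap, a difference of 1.20 (SE 0.25, adjusted p = 0.437 by limma) that did not pass over all genes. KO and WT HSC did not overlap for 8.87% of all genes (5.15% higher in KO). Of 11 tested genes of V(D)J recombination and end joining 0 passed in WT mice (median 0.066), where the chromatin protein gene Hmgb2, a cofactor of the recombinase, stood at 0.60 (adjusted p = 0.146). In KO mice 1 passed, Xrcc6, a subunit of the Ku complex at DNA ends, at 1.12 (adjusted p = 0.0494 by limma). It was named after its value was seen, and the call was lost with the mouse as a block (0.113) and in most other settings, with adjusted p of up to 0.288 without mouse 2. In WT mice Xrcc6 stood at 0.59 (adjusted p = 0.283 by limma), and no gene of this list passed for the interaction. None of the 5 tested T cell receptor signalling genes around TESPA1 passed, with medians of -0.12 in WT and 0.071 in KO mice. Lcp2, an adaptor of that pathway, stood at -0.82 in WT mice (adjusted p = 0.301).

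For KO against WT the gene of lowest p in each list is given as a value that did not pass. In MPP these were Ets1, a factor of lymphoid cells, at -0.88, Ikzf5 at -0.64, the Notch feedback gene Nrarp at -0.50, the adaptor gene Grb2 at -0.50, the DNA polymerase gene Poll at -0.35 and Lat at 0.075, each with an adjusted p of 0.99991 by limma. In HSC they were Cish, given above, Plcg1 at -1.11 (adjusted p = 0.790), the DNA damage adaptor gene Trp53bp1 at -1.06 (0.638), Rbpj at 0.79 (0.790), Tcf4 at 0.47 (0.839) and Bcl11b, a T lineage factor, at 0.26 (0.933).

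**Figure D5:**
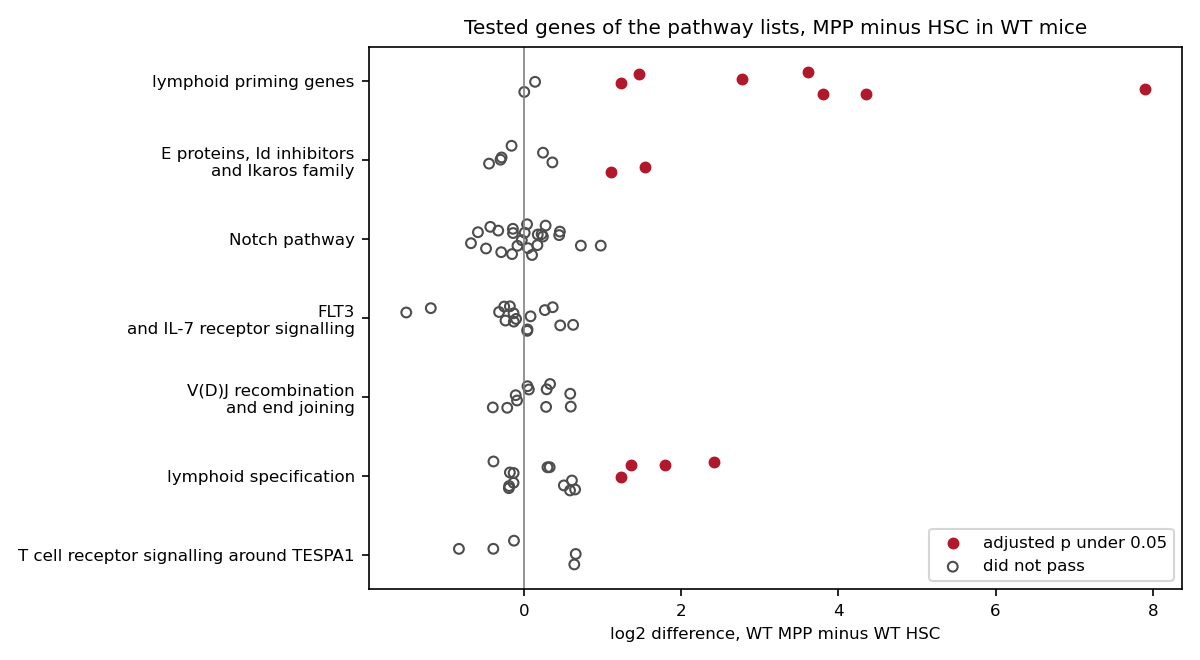
Log2 difference of WT MPP minus WT HSC for every tested gene of the lymphoid priming list and of the 6 pathway lists, 1 point per gene, filled where the adjusted p was under 0.05. The lymphoid priming genes reach 7.90 with 7 filled points, lymphoid specification has 4 and the E protein, Id and Ikaros list 2, and the other lists have none. Height within a row is random.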

How the data were processed

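RNA of the sorted cells, 300 pg of each, was amplified with NuGEN kits and labelled with biotin, per the labels' protocols. The deposited table gives log2 intensities per probe set, made by the authors with RMA. The submitters' processing notes name RMA and limma, without versions. RMA gives all arrays 1 distribution, so a shift of the whole transcriptome is removed and differences near background are compressed. So little RNA makes weak signals noisy. No detection calls were used, and the number of arrays limits precision.

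The platform annotation names 1 gene for 19527 of 22142 probe sets, several for 0 and none for 2615. For 33 genes with several probe sets the one of highest mean was kept. Of 19494 genes, 4874 in the lowest 25% by mean (below 4.96) were left out. One limma fit (limma 3.58.1, R 4.3.3) of group means over all 12 arrays gave two-sided moderated tests, Benjamini-Hochberg adjusted over 14620 genes for each comparison, with a threshold of 0.05. Replicates are separate mice, 3 of each genotype. The fit was tested on simulated data.

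The lymphoid priming genes, pathway lists and marker lists were chosen with earlier results of these data known. The rule for names takes all 10 genes, Nfat5, the sort genes, up to 5 genes of lowest p per pathway list for WT MPP against WT HSC, 1 per list for each KO comparison, and the 5 genes nearest in r to Dntt and to Il7r. Levels were not compared between probe sets.

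The labels tie each MPP array to the HSC array of the same mouse. Across genes, their deviations from the group means correlated with r of 0.032 to 0.091. Fits with the mouse as a block were alternatives. The block was fixed for MPP against HSC and the interaction, and random for KO against WT, with a consensus correlation of 0.0723. The others changed the filter (none, or 50%), averaged the probe sets of a gene, repeated the quantile normalization, used trended and robust moderation or array weights, restricted the fit to the arrays compared, or dropped each mouse in turn. Dropping only the HSC array of KO mouse 2 was added after the data were seen.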

Additional observations from a re-analysis of the deposited data

How the results depend on the processing

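With the mouse as a replicate block 180 genes differed between WT MPP and WT HSC, 154 of them among the 302, and 113 between KO MPP and KO HSC, 92 of them among the 184. With only the arrays compared 79 genes passed in KO mice, and 3 of the 9 lymphoid priming genes. Leaving out 1 mouse gave 71 to 299 genes and 4 to 7 of the 9 in WT mice, 59 to 167 genes and 3 to 5 of the 9 in KO mice, and 0 to 1 genes for KO against WT HSC, the 1 without mouse 11. Without the HSC array of KO mouse 2 alone 104 genes passed between KO MPP and KO HSC. With array weights the difference turned for Tcf3 in WT MPP against WT HSC (-0.035) and in KO MPP against KO HSC (0.0013), for Satb1 in KO against WT HSC (-0.042) and for the interactions of Rag2 (0.0034) and Tcf3 (0.036). Values that crossed 0 when 1 mouse was left out were all ones that had not passed. For MPP against HSC these were Notch1 (-0.021 to 0.25 in WT, -0.14 to 0.0020 in KO, and 0.037 without the HSC array of mouse 2 alone), Tcf3 (-0.13 to 0.077 in WT, -0.17 to 0.13 in KO) and Lat (-0.39 to 0.19 in WT). For KO against WT MPP they were Flt3 (-0.19 to 0.13), Il7r (-0.56 to 0.15), Rag2 (-0.066 to 0.31), Ikzf1 (-0.23 to 0.051) and Lat (-0.11 to 0.17). For KO against WT HSC they were Satb1 (-0.43 to 0.76), Rag2 (-0.093 to 0.43) and Notch1 (-0.040 to 0.17), and for the interaction Satb1 (-0.93 to 0.24), Tespa1 (-0.61 to 0.079, and -0.73 without the HSC array of KO mouse 2 alone), Rag2 (-0.37 to 0.40) and Tcf3 (-0.17 to 0.13). The block changed no call other than those given in the results. Of the 9 genes, the filter at 50% left out Il7r, which then has no value. The cause of these changes was not tested. Limits are 3 mice per group, amplification from little RNA, and signals near the bottom of the scale for Dntt and Il7r in HSC and for Tespa1 in WT HSC.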
